A study of Mus musculus with 4 samples.

Results

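Transcripts of 10 genes were read in sorted mouse mammary tumor cells: the matrix metalloproteinases (MMPs) Mmp2, Mmp3, Mmp9, Mmp10, Mmp11, Mmp13 and Mmp14, and the tissue inhibitors of metalloproteinases (TIMPs) Timp1, Timp2 and Timp3. They were taken by gene symbol from a count table of 54532 genes, in which each symbol matched 1 row. The cells came from C57BL/6 tumors of the MMTV-PyMT model, in which a promoter active in mammary epithelium drives the polyoma middle T oncogene, raised by MFP injection as the series labels abbreviate it. Both groups carry the oncogene and a Dll1 mCherry reporter, and both hold mCherry-positive cells only. Before the mCherry sort, tumor cells were enriched with antibodies to CD45 (blood cells), CD31 (endothelium) and TER119 (red cells). The unirradiated group has 2 libraries, and the irradiated group has 2 libraries from tumors given targeted radiation on day 30. The radiation dose, the age of the mice and the number of animals behind each library were not stated in the labels, so the p-values reflect how far these 4 libraries vary, and that variation may be technical.

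MMPs are zinc-dependent endopeptidases that are made as inactive proenzymes, are secreted or anchored in the plasma membrane, and cleave collagens, proteoglycans, growth factors and cell surface proteins. TIMPs bind the active site of MMPs and block it. TIMP2 has a further role: on the cell surface it forms a complex with MT1-MMP, the product of Mmp14, that captures and activates pro-MMP2. In mammary tumors MMPs are made by tumor cells and also by fibroblasts, macrophages and neutrophils.

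The summed counts ran from 16811888 to 20817997 per library. Replicates lay closer together without radiation: the coefficient of variation beyond counting noise was 5.93% for the unirradiated pair and 39.5% for the irradiated pair. All 11 mammary epithelial markers examined were detected in every library, with a summed level of 11597 and 11148 CPM without radiation (CPM being TMM-scaled counts per 1e6 reads), 12201 CPM in irradiated 1 and 9826 CPM in irradiated 2. Transcripts of the sorted-out cells were also present and were highest in irradiated 2. Ptprc, which encodes CD45, measured 2.41 and 1.18 CPM without radiation, 9.63 CPM in irradiated 1 and 77.2 CPM in irradiated 2. Pecam1, which encodes CD31, was at 6.98, 4.95, 9.48 and 158 CPM in the same order. The title codes (R11, R14) follow the treatment, so any handling tied to them and the radiation cannot be told apart.

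All 10 MMP and TIMP transcripts were highest in irradiated 2, while irradiated 1 lay near the unirradiated pair for most of them. Mmp9, Mmp3 and Mmp13 stood furthest above the unirradiated mean in irradiated 2, by 16.8-fold, 11.8-fold and 9.47-fold, and Timp3 least, by 1.30-fold. None of the differences between the groups passed the test. With the edgeR quasi-likelihood test and Benjamini-Hochberg adjustment over all 15993 genes tested, 0 members were called higher and 0 lower, against 0% of all genes called in each direction. At an unadjusted p under 0.05 the same test held 4 members, all higher (Mmp9, Mmp13, Mmp14 and Timp3), beside 6.82% of all genes on the higher side and 2.44% on the lower side. DESeq2 called 1 member higher (Mmp9), beside 2.73% of all genes higher and 0.350% lower. With limma-voom 0 members were called, beside 0% of all genes in each direction. With no filter on low counts edgeR called 6 members higher (Mmp2, Mmp3, Mmp9, Mmp13, Mmp14 and Timp2) and 0 lower, beside 4.86% of all genes higher and 0.381% lower. Of the 10 members 9 passed the filter and were tested. Mmp10 was too low, and Mmp13 passed the filter on low counts through the irradiated libraries alone. The irradiated pair lay wholly above the unirradiated pair in 6 of the 9, or in 5 of 8 without Mmp13, beside 20.3% of all genes tested, and in 0 of the 9 they lay below, beside 20.0%. Because the irradiated pair varied more than the unirradiated pair, such a share has no fixed expectation for unchanged genes.

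**Figure D1:**
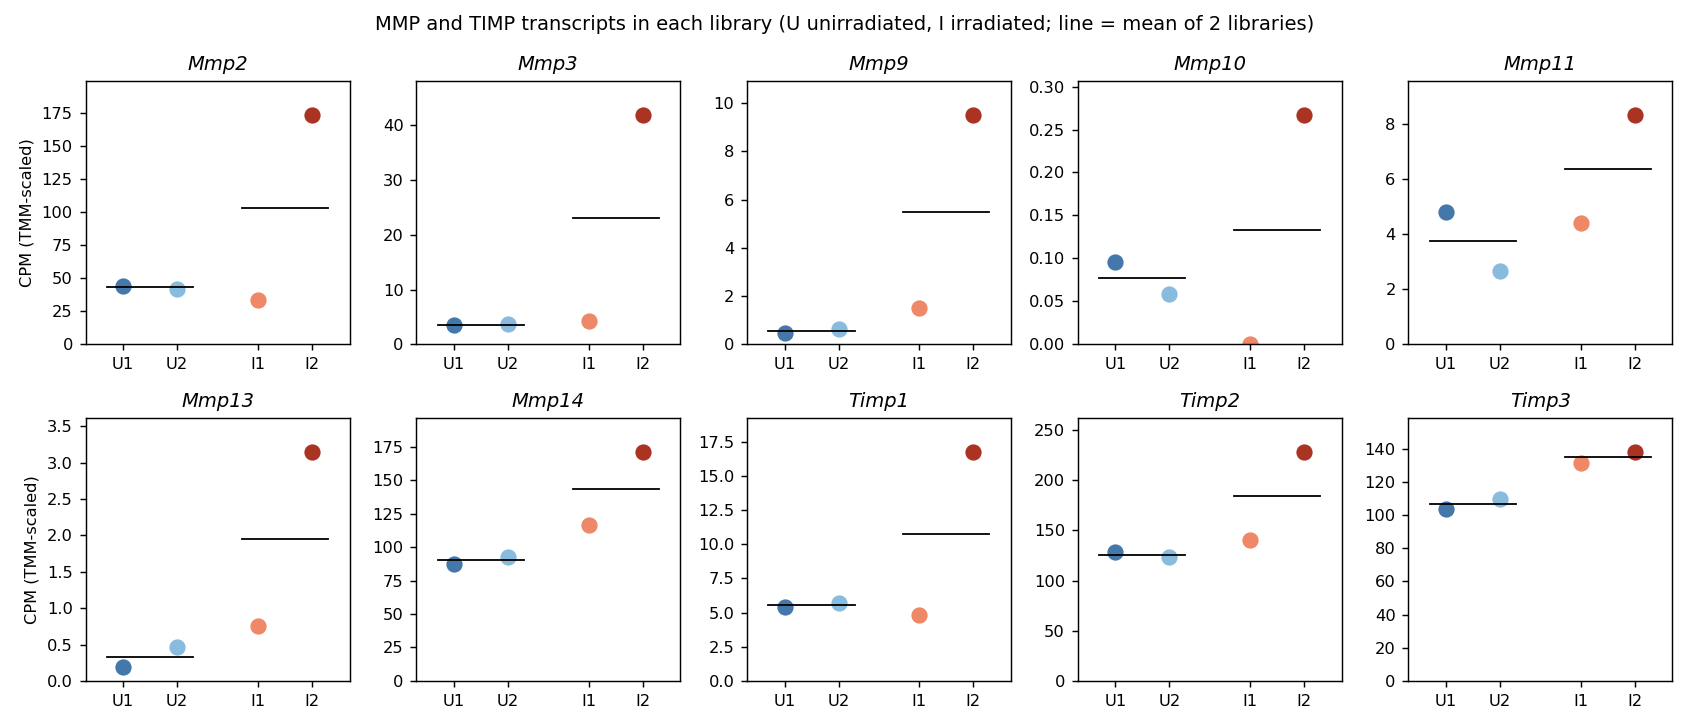
TMM-scaled CPM (linear vertical axis from 0, scaled per gene) of the 10 MMP and TIMP genes in unirradiated libraries 1 and 2 (U1, U2) and irradiated libraries 1 and 2 (I1, I2). Points are single libraries and black lines the mean of 2. Irradiated 2 is the highest point in every panel, and irradiated 1 lies above both unirradiated libraries in Mmp3, Mmp9, Mmp13, Mmp14, Timp2 and Timp3.

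The gelatinases MMP2 and MMP9 cleave denatured collagen and type IV collagen of basement membranes. Mmp2 (ENSMUSG00000031740) lies on chromosome 8 from 92827291 to 92853420 in mm10. Its level was 44.3 and 41.8 CPM without radiation, 33.7 CPM in irradiated 1 and 173 CPM in irradiated 2. The irradiated libraries lay on either side of the unirradiated pair, so the groups overlapped. The fitted log2 fold change was 1.27 (SE 0.73; edgeR adjusted p = 0.672). Without irradiated 2 it turned to -0.36, and without irradiated 1 it was 1.99. Such fits give the single irradiated library the spread of the unirradiated pair, so only their fold changes are given here and below.

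Mmp9 (ENSMUSG00000017737), on chromosome 2 from 164940780 to 164955850, was scarce in the unirradiated libraries. It had 10 and 11 counts there, with exact 95% Poisson intervals of 4.80 to 18.4 and 5.49 to 19.7 that cover counting error only. In irradiated 1 it had 30 counts (20.2 to 42.8) and in irradiated 2 178 counts (153 to 206). On the scale of depth this was 0.481 and 0.649 CPM against 1.51 and 9.49 CPM. As CPM the interval of irradiated 1 (1.02 to 2.16) lay above that of unirradiated 1 (0.231 to 0.885) and overlapped that of unirradiated 2 (0.324 to 1.16), while irradiated 2 (8.15 to 10.99) lay above all others, and irradiated 2 was 6.27-fold above irradiated 1. The log2 fold change of 3.27 (SE 0.97) was the largest among the tested members and did not pass in edgeR (adjusted p = 0.492). By DESeq2 Mmp9 was the one member called (adjusted p = 0.0291), while DESeq2 called 2.73% of all genes higher and 0.350% lower. Without irradiated 2 its edgeR log2 fold change was 1.41, and without irradiated 1 it was 4.06.

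Mmp3 and Mmp10 encode the stromelysins 1 and 2, which have broad matrix substrates and activate other MMPs, and Mmp13 encodes the main interstitial collagenase of the mouse. All 3 lie on the plus strand of chromosome 9 in mm10: Mmp13 (ENSMUSG00000050578) from 7272514 to 7283331, Mmp3 (ENSMUSG00000043613) from 7445822 to 7455975 and Mmp10 (ENSMUSG00000047562) from 7502352 to 7510240. They are part of a cluster in which the table lists 10 MMP genes. The 250 bases upstream of the RefSeq start of each are shown (RefSeq, GRCm38.p6), because these 3 of the 8 members matched in the promoter table hold the letters TGAGTCA, the recognition sequence of AP-1 (Fos and Jun dimers), on either strand. Timp3, the member whose irradiated libraries were most alike, is shown for comparison. Capitals mark TGAGTCA or its reverse complement TGACTCA and the TATA box letters TATAAA. The stretches lie at chr9:7272264-7272513 for Mmp13, chr9:7445572-7445821 for Mmp3, chr9:7502092-7502341 for Mmp10 and chr10:86300162-86300411 for Timp3, all on the plus strand.
Mmp13: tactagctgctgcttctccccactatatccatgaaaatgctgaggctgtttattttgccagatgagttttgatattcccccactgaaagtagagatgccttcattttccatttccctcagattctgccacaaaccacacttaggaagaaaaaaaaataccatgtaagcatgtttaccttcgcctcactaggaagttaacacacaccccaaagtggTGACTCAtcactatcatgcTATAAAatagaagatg
Mmp3: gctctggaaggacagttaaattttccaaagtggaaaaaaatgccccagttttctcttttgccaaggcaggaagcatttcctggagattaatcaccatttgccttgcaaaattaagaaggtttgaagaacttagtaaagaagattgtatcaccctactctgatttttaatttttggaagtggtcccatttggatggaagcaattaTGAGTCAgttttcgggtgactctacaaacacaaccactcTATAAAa
Mmp10: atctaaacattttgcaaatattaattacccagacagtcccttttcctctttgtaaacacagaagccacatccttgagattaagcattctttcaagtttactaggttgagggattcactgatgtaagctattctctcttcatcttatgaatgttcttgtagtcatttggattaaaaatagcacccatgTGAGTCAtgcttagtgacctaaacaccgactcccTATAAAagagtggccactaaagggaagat
Timp3: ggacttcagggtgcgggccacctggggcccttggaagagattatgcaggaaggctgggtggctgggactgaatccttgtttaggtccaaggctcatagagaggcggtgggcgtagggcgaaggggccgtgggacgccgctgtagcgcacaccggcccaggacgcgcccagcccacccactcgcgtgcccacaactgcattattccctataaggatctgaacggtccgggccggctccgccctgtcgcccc

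The AP-1 letters end 29 bases before the start in Mmp13, 40 bases before it in Mmp3 and 57 bases before it in Mmp10, each followed by TATAAA. Over all 32851 upstream stretches of this length 4.46% hold TGAGTCA and 12.4% hold TATAAA on either strand. The letters AGGAAG, a site of the PEA3 group of Ets factors, were found in 5 of the 8 members (Mmp13, Mmp3, Timp3, Mmp14 and Timp1), beside 29.5% of all stretches. AACCACA, the site of Runx factors, was found in Mmp13 alone, beside 4.40% of all stretches. These matches describe the sequence and are not evidence of binding.

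The 3 clustered genes had unlike levels. Mmp3 measured 3.46 and 3.66 CPM without radiation, 4.19 CPM in irradiated 1 and 41.8 CPM in irradiated 2. Irradiated 1 stood barely above the unirradiated pair, and irradiated 2 was 9.99-fold above irradiated 1. The log2 fold change was 2.69 (SE 1.05, edgeR adjusted p = 0.540), and it was 0.22 without irradiated 2 against 3.54 without irradiated 1.

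Mmp13 had 4 and 8 counts in the unirradiated libraries (exact 95% Poisson intervals 1.09 to 10.2 and 3.45 to 15.8), 15 in irradiated 1 (8.40 to 24.7) and 59 in irradiated 2 (44.9 to 76.1). The interval of irradiated 1 overlapped those of both unirradiated libraries, and that of irradiated 2 did not overlap any other. Its log2 fold change was 2.55 (SE 0.92; edgeR adjusted p = 0.514). Without irradiated 2 it was 1.20, and without irradiated 1 it was 3.25.

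Mmp10 was at the limit of detection, with 2, 1, 0 and 5 counts in unirradiated 1, unirradiated 2, irradiated 1 and irradiated 2. The exact 95% Poisson interval of the 0 in irradiated 1 reached 3.69 counts, or 0.186 CPM. That of irradiated 2 (1.62 to 11.7 counts) overlapped those of both unirradiated libraries. No difference was detectable for Mmp10, whose upstream sequence carries the same AP-1 and TATA letters as those of Mmp3 and Mmp13.

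Mmp11 (ENSMUSG00000000901; chromosome 10, 75923222 to 75936496) encodes stromelysin 3, which is activated inside the cell by furin and is known from the stroma around carcinomas. It measured 4.81 and 2.65 CPM without radiation, 4.39 CPM in irradiated 1 and 8.32 CPM in irradiated 2. The unirradiated libraries differed from each other by 1.81-fold, close to the 1.89-fold between the irradiated ones, and irradiated 1 lay between them. The log2 fold change was 0.76 (SE 0.49; edgeR adjusted p = 0.714). Without irradiated 2 it was 0.20, and without irradiated 1 it was 1.12. Exons of Mmp11 share 5.58% of their bases with Chchd10 on the opposite strand, and, as the kit is non-directional, reads there cannot be assigned to either gene.

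Mmp14 (ENSMUSG00000000957; chromosome 14, 54431612 to 54445364), the gene of the membrane-bound collagenase MT1-MMP, was the most abundant of the 7 MMP members per gene length in the unirradiated libraries and in irradiated 1. It measured 87.4 and 92.5 CPM without radiation, 116 CPM in irradiated 1 and 171 CPM in irradiated 2. The groups did not overlap, and the unirradiated libraries differed by 1.06-fold. The log2 fold change was 0.67 (SE 0.20) and did not pass in edgeR (adjusted p = 0.492) or in DESeq2 (adjusted p = 0.0590). Each irradiated library taken alone against the unirradiated pair gave a value above 0 that passed: 0.36 without irradiated 2 (edgeR adjusted p = 0.00258) and 0.91 without irradiated 1 (adjusted p = 3.10e-20). Such fits call many genes: without irradiated 2 they called 11.9% of all genes higher and 13.9% lower, and without irradiated 1 15.9% higher and 7.95% lower.

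Timp3 was the member whose irradiated libraries lay closest together. Timp3 (ENSMUSG00000020044; chromosome 10, 86300372 to 86349506), whose product binds to the extracellular matrix and also inhibits ADAM proteases, measured 104 and 109.6 CPM without radiation, 132 CPM in irradiated 1 and 138 CPM in irradiated 2. Both irradiated libraries were above both unirradiated ones and lay 1.05-fold apart, where Mmp3 lay 9.99-fold apart. Its log2 fold change was 0.34 (SE 0.10, edgeR adjusted p = 0.492), 0.29 without irradiated 2 and 0.36 without irradiated 1. Exons of Timp3 share 21.3% of their bases with Syn3 on the other strand, a gene with 144 counts in all over the 4 libraries.

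Timp2 (ENSMUSG00000017466; chromosome 11, 118301069 to 118355740) was the most abundant member per gene length in every library. It measured 128 and 123 CPM without radiation, 140.1 CPM in irradiated 1 and 228 CPM in irradiated 2. Irradiated 1 was above both unirradiated libraries by a small amount and irradiated 2 by 1.82-fold against their mean. The log2 fold change was 0.55 (SE 0.24, edgeR adjusted p = 0.582), and 0.14 without irradiated 2 against 0.85 without irradiated 1.

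Timp1 (ENSMUSG00000001131; chromosome X, 20870166 to 20874735), the secreted inhibitor that is induced by cytokines in many cell types, measured 5.39 and 5.72 CPM without radiation. It was at 4.79 CPM in irradiated 1, below both, and at 16.7 CPM in irradiated 2, above both. The log2 fold change of 0.95 (SE 0.61, edgeR adjusted p = 0.712) turned to -0.22 without irradiated 2 and was 1.58 without irradiated 1. Among the 9 tested members Timp1 and Mmp2 were the ones whose direction depended on the irradiated library used. Mmp10, which was not tested, also had its lowest count in irradiated 1 and its highest in irradiated 2.

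**Figure D2:**
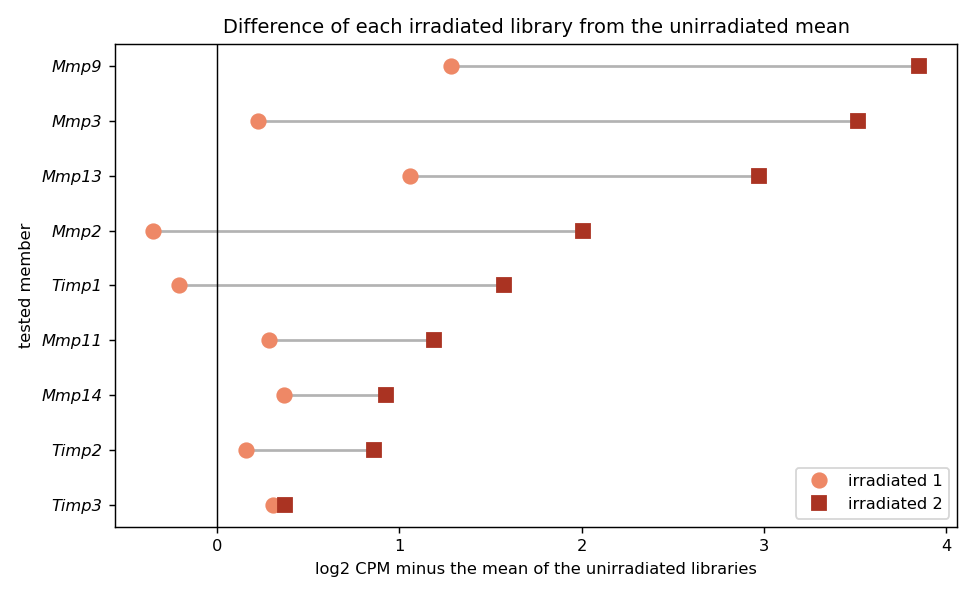
Log2 CPM (prior count 2) of irradiated 1 (circles) and irradiated 2 (squares) minus the mean of the unirradiated libraries, for the 9 tested members ordered by irradiated 2. Irradiated 2 lies from 0.37 (Timp3) to 3.85 (Mmp9) above the unirradiated mean, and irradiated 1 from -0.35 (Mmp2) to 1.28 (Mmp9).

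In irradiated 2 6 of the 9 tested members lay over 2-fold above the unirradiated mean on the log2 CPM scale, beside 9.75% of all genes tested, and in irradiated 1 2 members did (Mmp9 and Mmp13), beside 5.88%. Between the irradiated libraries 5 members were over 2-fold higher in irradiated 2, beside 11.5% of all genes. The median log2 difference of the tested members was 0.29 in irradiated 1 and 1.57 in irradiated 2, where the medians over all genes tested were -0.0025 and 0.0041. Mmp13, which passed the filter on low counts through the irradiated libraries alone, is included in each of these counts and medians. Without Mmp13 the only member counted in irradiated 1 is Mmp9.

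**Figure D3:**
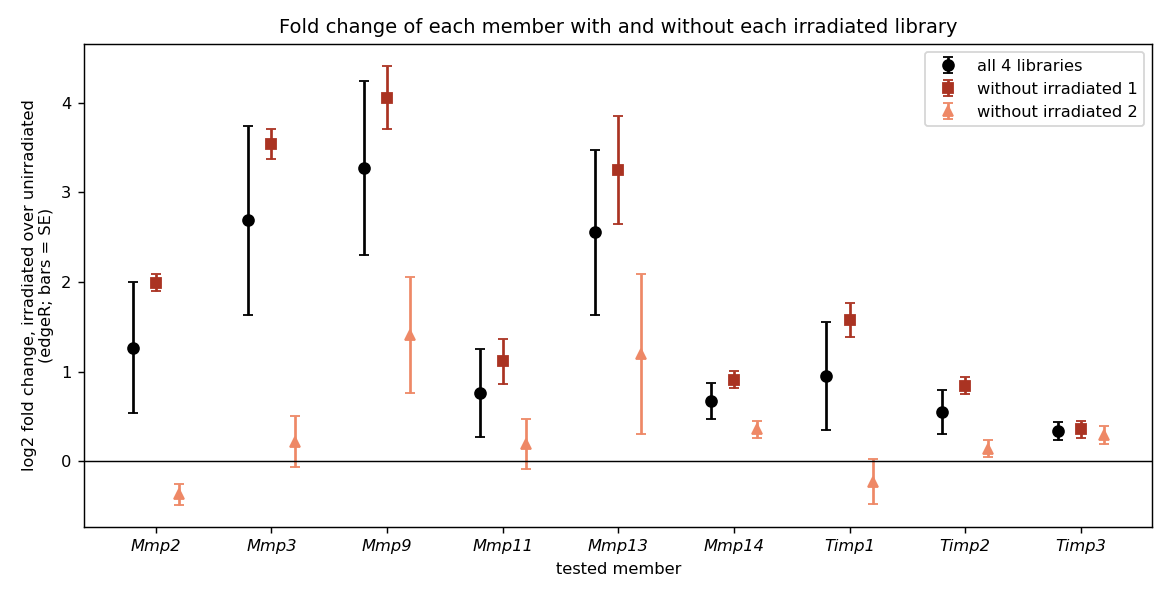
Log2 fold change of irradiated over unirradiated in edgeR for the 9 tested members with all 4 libraries (black circles), without irradiated 1 (squares) and without irradiated 2 (triangles); bars are SE. Without irradiated 2 Mmp2 and Timp1 lie below 0, and for Timp3 the 3 values lie between 0.29 and 0.36.

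Levels of different genes were compared per gene length, as CPM per kb. In the unirradiated libraries Timp2 led at 32.2 ± 0.927 CPM per kb (SD, n = 2 here and below). Mmp14 followed at 15.1 ± 0.611, Timp3 at 13.1 ± 0.515, Mmp2 at 12.8 ± 0.527 and Timp1 at 6.26 ± 0.264 CPM per kb. Mmp3 was at 1.98 ± 0.0754, Mmp11 at 1.34 ± 0.549, Mmp9 at 0.160 ± 0.0335, Mmp13 at 0.124 ± 0.0739 and Mmp10 at 0.0451 ± 0.0153 CPM per kb. Timp3 and Mmp2 overlapped between libraries, as did Mmp9 and Mmp13, so the order within these pairs is not resolved. With the non-directional kit, reads in the 21.3% of Timp3 exon bases shared with Syn3 cannot be assigned. The order of Timp3 against Mmp14 is therefore not resolved. In irradiated 2 the order differed: Timp2 was at 58.6 CPM per kb, Mmp2 at 51.4, Mmp14 at 28.7, Mmp3 at 23.2, Timp1 at 18.9 and Timp3 at 17.0 CPM per kb. Mmp3 and Timp1 thus stood above Timp3 in irradiated 2 and below it in the other 3 libraries, with the same limit on Timp3.

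Summed per kb, the 7 MMP transcripts were at 31.7 and 31.3 CPM per kb in the unirradiated libraries, 34.1 in irradiated 1 and 110.3 in irradiated 2, and the 3 TIMP transcripts at 51.7, 51.5, 57.5 and 94.4 CPM per kb in the same order. The ratio of summed TIMP to summed MMP transcripts was 1.63 and 1.65 in the unirradiated libraries, 1.69 in irradiated 1 and 0.855 in irradiated 2. The 7 MMP members summed above the 3 TIMP members per length in irradiated 2 alone among these 4 libraries. This holds for the members only, because the sum leaves out Mmp15. That gene was at 40.3 and 43.1 CPM per kb unirradiated, 38.6 in irradiated 1 and 39.2 in irradiated 2. Alone it exceeded the 7-gene MMP sum in every library but irradiated 2. Mmp2 and Mmp14 together made up 87.6% and 89.2% of the MMP sum in the unirradiated libraries, 86.5% in irradiated 1 and 72.6% in irradiated 2, where Mmp3 took 21.1%. The ratio of Mmp2 to Mmp14 was 0.896 and 0.798 in the unirradiated libraries, 0.513 in irradiated 1 and 1.79 in irradiated 2.

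**Figure D4:**
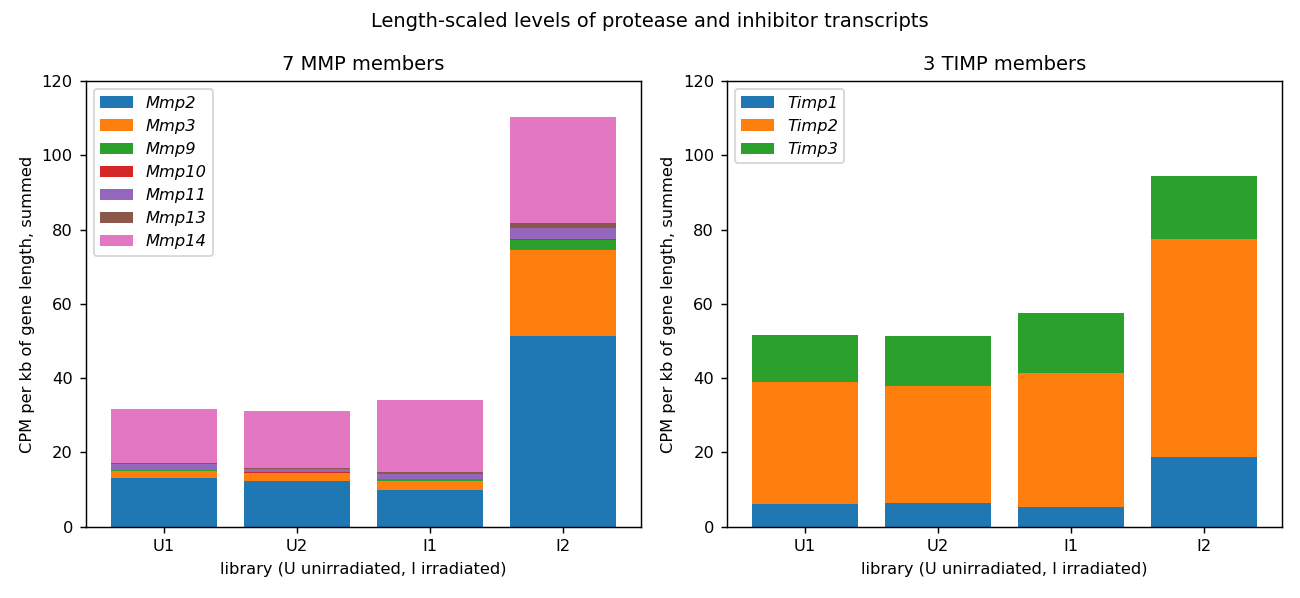
Summed CPM per kb of gene length of the 7 MMP genes (left) and the 3 TIMP genes (right) in each library, stacked by gene, on a linear axis from 0. The MMP bar of irradiated 2 reaches 110.3 CPM per kb against 31.3 to 34.1 in the other 3 libraries, and the TIMP bar 94.4 against 51.5 to 57.5.

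Of the 16 other MMP genes and Timp4, 7 were tested, and 0 passed in edgeR in either direction. In 2 (Mmp12 and Mmp23) both irradiated libraries lay above the unirradiated pair and in 1 below it, beside 20.3% and 20.0% of all genes tested. Mmp12, the metalloelastase gene of macrophages, had 7 and 0 counts in the unirradiated libraries, 32 in irradiated 1 and 179 in irradiated 2. It passed the filter on low counts through the irradiated libraries alone, and without it 1 of 6 lay above. DESeq2 called Mmp12 higher (adjusted p = 0.00709) and no other gene of this list, where edgeR gave an adjusted p of 0.491. Mmp23 had 3.03 and 2.12 CPM unirradiated and 5.09 and 10.2 CPM irradiated, and Mmp28, the epilysin gene, 0.866 and 0.354 versus 0.807 and 4.42 CPM. Mmp15, the gene of the second membrane-type enzyme, was picked after its values were seen: at 40.3 and 43.1 CPM per kb in the unirradiated libraries, 38.6 in irradiated 1 and 39.2 in irradiated 2, it was above each of the 7 MMP members in all but irradiated 2, where Mmp2 was higher. In the chromosome 9 cluster Mmp8, the neutrophil collagenase gene, had 2, 4, 2 and 51 counts and Mmp27 4, 0, 0 and 28 in the order unirradiated 1, unirradiated 2, irradiated 1 and irradiated 2. Mmp1b and Mmp20, 2 genes of that cluster, had no count in any library. The exact 95% Poisson interval of a count of 0 reaches 3.69 counts.

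Related proteases and regulators were read from lists of the same pathway. Their counts stand beside 20.3% of all genes tested above and 20.0% below the unirradiated pair, and beside 2.73% called higher and 0.350% called lower by DESeq2. Among 20 tested ADAM and ADAMTS genes 0 passed in edgeR, 9 lay above and 1 below, and DESeq2 called 5 higher and 0 lower. Adam8, a metalloprotease gene of leukocytes and some tumor cells, had 5.10 and 4.90 CPM unirradiated and 12.0 and 22.7 CPM irradiated. Adamts15 had 23.7 and 24.4 CPM unirradiated and 34.4 and 37.8 CPM irradiated, and Adamts8 36.1 and 31.7 versus 19.4 and 22.9 CPM. Among 24 tested activators and regulators of MMPs 0 passed in edgeR, 10 lay above and 3 below, and DESeq2 called 3 higher and 0 lower. Genes of the urokinase system, whose product plasmin activates several pro-MMPs, were among those with the smallest p: Plau had 20.7 and 19.6 CPM unirradiated and 49.8 and 73.9 CPM irradiated, and its receptor gene Plaur 22.0 and 22.7 versus 48.2 and 43.6 CPM. In both genes irradiated 1 was over 2-fold above both unirradiated libraries, which among the members was so of Mmp9 alone.

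Of 22 matrix substrates, 4 of which (Col1a1, Col1a2, Col3a1 and Dcn) are also fibroblast markers, 0 passed in edgeR, 13 lay above and 0 below, and DESeq2 called 2 higher and 0 lower, beside the same shares of all genes. Tnc, the tenascin C gene, had 24.8 and 25.3 CPM unirradiated and 56.2 and 76.1 CPM irradiated, and Col18a1, the source of endostatin, 51.4 and 53.7 versus 110.4 and 158 CPM. The fibrillar collagen gene Col1a1 had 174 and 183 CPM unirradiated and 261 and 1766 CPM irradiated. Of 22 genes of factors and cytokines that induce MMP transcription 0 passed in edgeR, 7 lay above and 2 below, again beside 20.3% and 20.0% of all genes, and DESeq2 called 4 higher and 0 lower. Of these 22 Il1a and Osm passed the filter through the irradiated libraries alone, and both are among the 4 that DESeq2 called. Without Il1a and Osm 5 of 20 lay above and 2 below. The median log2 difference over the 22 was 0.23 for irradiated 1 and 0.0076 for irradiated 2. The transcription factor gene Ets1 had 46.4 and 46.0 CPM unirradiated and 75.6 and 126 CPM irradiated, the interleukin gene Il1a 0.337 and 0.177 versus 1.31 and 5.38 CPM, and Egfr 103 and 101 versus 80.6 and 72.4 CPM.

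Summed markers of each cell type examined other than mast cells and mammary epithelium were highest in irradiated 2, as the members were. The 12 fibroblast markers summed to 750 and 767 CPM without radiation, 954 CPM in irradiated 1 and 6382 CPM in irradiated 2, and 8 of 12 lay above the unirradiated pair, beside 20.3% of all genes tested. The 12 macrophage markers without Cd14, which was itself at 276 to 335 CPM in all 4 libraries, summed to 30.2, 27.8, 90.95 and 675 CPM, with 10 of 12 listed markers above, or 7 of 9 without the 3 (Itgam, Mrc1 and Fcgr1) that passed the filter through the irradiated libraries alone. The 10 neutrophil markers summed to 759, 761, 654 and 786 CPM with Ltf, a milk protein gene as well. Without Ltf they summed to 5.39, 9.50, 13.5 and 117 CPM. Of 7 neutrophil markers tested 4 lay above and 1 below the unirradiated pair, beside 20.3% and 20.0% of all genes tested. Leaving out the 1 that passed the filter through the irradiated libraries alone, 3 of 6 lay above. The 10 endothelial markers summed to 36.9, 32.3, 57.9 and 868 CPM and the 11 lymphocyte markers to 7.94, 6.19, 29.0 and 186 CPM. The 8 pericyte markers ranged less, from 332 and 341 CPM to 353 and 526 CPM. Without Notch3, the highest of them, they summed to 188, 179, 178 and 376 CPM in the same order. The 6 red cell markers summed to 2.02, 4.36, 5.85 and 35.1 CPM, and the 6 mast cell markers without Kit, which was at 251 CPM or more, to 0.0962, 0.295, 1.21 and 0.213 CPM. Defining markers at 0 among the fibroblast, macrophage, neutrophil, endothelial, lymphocyte and pericyte lists were few: Ly6g in 3 libraries, Itgam and Fcgr1 in unirradiated 2, and Cd3d in unirradiated 2 and irradiated 1. More cells of a type and more RNA per cell cannot be told apart in these bulk libraries, and the part of such cells in the MMP and TIMP values was not tested. Irradiated 1 also stood above both unirradiated libraries in the summed fibroblast, endothelial, lymphocyte and red cell markers. The same held for macrophage markers without Cd14 and neutrophil markers without Ltf. For the 8 pericyte markers it held with Notch3 and not without it. The fit without irradiated 2 rests on 1 irradiated library. It gave log2 fold changes of 0.36 for Mmp14, 0.29 for Timp3 and -0.36 for Mmp2, as given above.

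**Figure D5:**
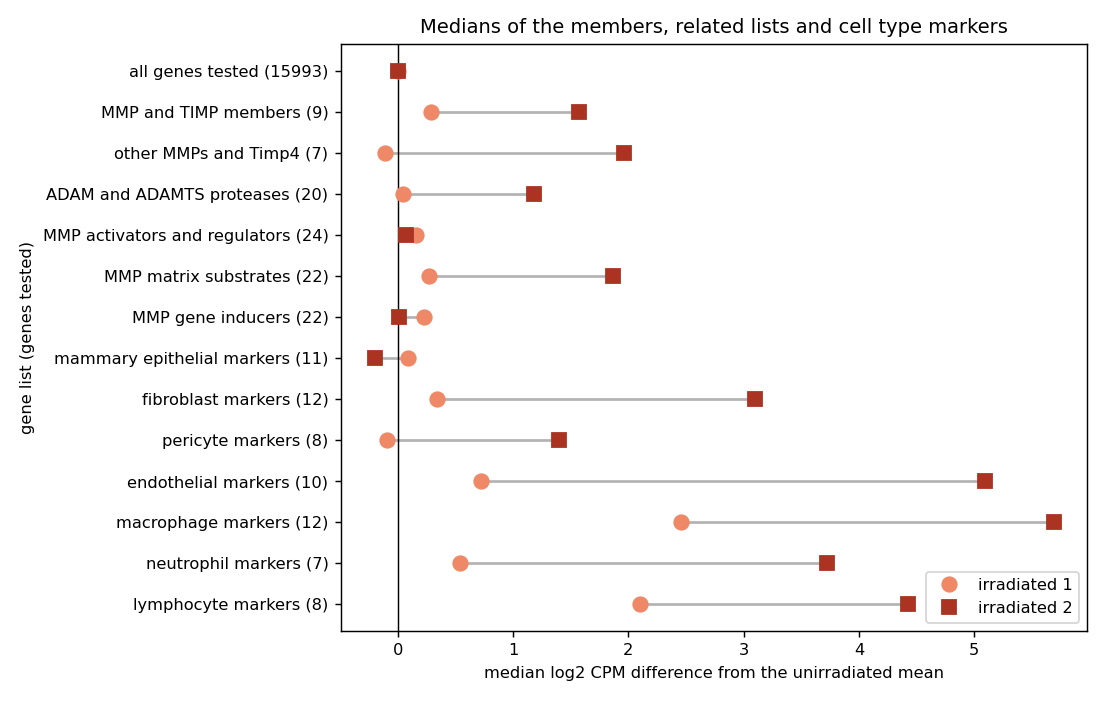
Median log2 CPM difference of irradiated 1 (circles) and irradiated 2 (squares) from the unirradiated mean, over the tested genes of each list (their number in brackets). The members' medians are 0.29 and 1.57, those of fibroblast markers 0.34 and 3.10 and those of macrophage markers 2.46 and 5.69, while mammary epithelial markers lie at 0.0912 and -0.20. Mast cell and red cell markers, with 1 and 3 tested genes, are not drawn. The medians include genes that passed the filter on low counts through the irradiated libraries alone, a selection that favors higher values there. These are 3 of 12 macrophage, 1 of 7 neutrophil and 4 of 8 lymphocyte markers. They are also 1 of 9 members, 1 of 7 other MMPs and Timp4, and 2 of 22 inducers.

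The genes with the most similar pattern were found by the Euclidean distance between log2 CPM profiles over the 4 libraries, each minus its own mean, among genes with an average log2 CPM of at least 1. The nearest to Mmp2 were Papss2, Adamts12 and Serpinf1 (distances 0.114, 0.116 and 0.146), and 84 of 12376 genes lay within 0.5. Nearest to Mmp3 were Dpt, Fam13c and Lox (0.0823, 0.124 and 0.138), with 69 genes within 0.5. Dpt, the dermatopontin gene, had 7.65 and 7.67 CPM unirradiated and 8.98 and 93.4 CPM irradiated, and Lox, the gene of a collagen-crosslinking oxidase, 6.30 and 5.90 versus 7.06 and 66.9 CPM. For Mmp9 they were Ifi207, Fmnl1 and Adgrd1 (0.122, 0.242 and 0.283; 31 genes within 0.5), for Mmp11 Clca1, B3gnt9 and Pcdhb14 (0.156, 0.184 and 0.250; 63 genes) and for Mmp13 Nova1, Bdkrb2 and Clip3 (0.202, 0.297 and 0.319; 11 genes). Mmp14 was nearest to Fam102b, Ugcg and Ube2l6, Timp1 to Rps2-ps13, C2 and Eml1, and Timp2 to Crtap, Ehd2 and Dysf, with 804, 146 and 1062 genes within 0.5. The profile of Timp3 was a common one: Kctd10, Bub1b and Dbf4 were nearest, and 6231 genes lay within 0.5. With 4 libraries such likeness is a description only.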

How the data were processed

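Poly(A) RNA of 4 libraries was sequenced with a non-directional kit, per the labels' protocols. Deposited values are raw counts, 1 column per library, beside gene positions and lengths. STAR 2.5, HTSeq 0.6.1, DESeq2 (no version) and mm10 were used, per the submitters' processing notes, which state no counting options. A table of all 4 libraries was used, and its other 3 columns matched the single tables at all 54532 genes. Members had the same positions in GENCODE M21.

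After filterByExpr (minimum count 10 and total 15) and TMM scaling, groups were tested two-sided with edgeR 4.0.16 in R 4.3.3 (adjusted p under 0.05). DESeq2 1.42.0 and limma-voom 3.58.1 were alternatives, with other scalings, filters, a replicate block and each library left out. Log2 CPM used a prior count of 2. The smallest p of an exact permutation test here is 0.333. On simulated data with 200 changed genes edgeR recovered 31.3% of those changed 2-fold and 69% of those changed 4-fold over a mean of 15609 genes. A mean of 16.3 unchanged genes was called by edgeR there and 59.7 by DESeq2. The simulation gave both groups the same spread, unlike these data, so its rates do not carry over to this comparison.

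The members and lists were chosen with earlier results of these data known. Named beside the members are the 3 genes of each list with the smallest p, the markers with the highest level and the 3 nearest profiles; 1 gene that the rule picks is not reported here. Mmp15, Mmp8, Mmp27, Mmp1b and Mmp20, Osm, Mrc1, the sort markers Ptprc and Pecam1, and the markers given at 0 were added after their values were seen. Promoter letters came from RefSeq on GRCm38.p6, where 8 of 10 members matched. Counting intervals do not cover library preparation.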

Additional observations from a re-analysis of the deposited data

How the results depend on the processing

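DESeq2 size factors, upper-quartile scaling, library size alone, the stricter filter, limma-voom and an adjusted p threshold of 0.1 kept every count of calls at 0, for members and for all genes, and the direction of every tested member; Mmp13 did not pass the stricter filter. Mmp10 was tested only without a filter. Without a filter edgeR called 6 members and 1338 genes higher and 105 genes lower (4.86% and 0.381% of 27538), and DESeq2 called 1 member and 437 genes higher and 56 lower; the cause was not tested. With the replicate number as a block, edgeR called 2 genes higher, 0 lower and no member. The labels share numbers only: the deviations of same-numbered libraries correlated at -0.0992 across genes. Leaving out either unirradiated library gave 0 calls, for members and for all genes. Without irradiated 1 there were 9 members and 2713 genes higher and 1354 genes lower, and without irradiated 2 2 members and 2022 genes higher and 1 member and 2355 genes lower. Mmp2 and Timp1 reversed, to -0.36 and -0.22, without irradiated 2, and were 1.99 and 1.58 without irradiated 1. Depth limits Mmp10, and Mmp9 and Mmp13 in the unirradiated libraries.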
